A study of Mus musculus with 6 samples.

Results

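The genes described here are 10 genes of calcium release and reuptake in skeletal muscle, taken by symbol out of 52636 genes in the count tables. They comprise 8 calcium genes (*Cacna1s*, *Ryr1*, *Trdn*, *Jph1*, *Casq1*, *Atp2a1*, *Atp2a2* and *Pvalb*) and 2 genes annotated on the opposite strand of a calcium gene, *Rabep2* over *Atp2a1* and *Gm17224* over *Casq1*. In a muscle fiber, depolarization of the transverse tubule is sensed by the Cav1.1 channel, which opens the ryanodine receptor of the adjoining sarcoplasmic reticulum, and the released calcium starts contraction. Relaxation follows as SERCA pumps return calcium to the sarcoplasmic reticulum, where calsequestrin binds it, while parvalbumin buffers calcium in the cytosol. Fast fibers, which make up most of the mouse tibialis anterior (TA), are known for SERCA1 as their main pump and for abundant parvalbumin.

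The data are RNA-seq gene counts of TA muscles from 3 iMS*Bmal1*-/- and 3 iMS*Bmal1*+/+ male mice on a C57BL/6 background, which address how gene expression differs after loss of the clock factor BMAL1 in adult muscle. Mice of both groups carried floxed *Bmal1* alleles and a Cre recombinase under the human skeletal actin promoter, which tamoxifen activates in muscle fibers, so that other cells of the muscle keep the gene. At 12 to 16 weeks of age, 2 mg of tamoxifen per day was injected on 5 days to obtain iMS*Bmal1*-/- mice, whereas iMS*Bmal1*+/+ mice received the vehicle, 15% ethanol in sunflower seed oil, and TA muscles were collected 5 weeks after the injections. Effects of the genotype and of tamoxifen cannot be told apart with these groups. Counts per iMS*Bmal1*+/+ library summed to 2091912, 1997203 and 2716079, and per iMS*Bmal1*-/- library to 2403438, 1616290 and 2068657. These totals are far below the read depth given in the paper that describes this design, whose data listing names another series, and the reason was not tested. With 0 counts, up to 3 could have been missed, or 1.14 to 1.80 CPM (counts per 1000000 counts on the tested genes, scaled by TMM, a factor per library) depending on the library, a limit that covers counting error only.

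Libraries were made with a kit that keeps the strand of the RNA, but the strand setting used in counting is not given in the sources used here. This bears on every level reported for these genes. The mitochondrial gene *mt-Nd6*, annotated on the minus strand, had between 42996 and 93484 counts per library, whereas *mt-Co1*, on the plus strand, had between 543 and 803. Likewise, *Rabep2* had from 203966 to 389434 counts, and *Atp2a1*, the main pump gene of fast fibers, from 2326 to 3854. Counting with the opposite strand setting would place the reads of a gene on the gene that faces it, and whether this happened was not tested. Every value below is therefore the deposited count of the named gene. For the 8 calcium genes, the values of each annotated gene facing them are given too, and which of such 2 genes the RNA came from was not tested. *Trdn* and *Pvalb* have no such facing gene, and the uncertainty of strand holds for their counts as well.

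*Arntl*, the gene that encodes BMAL1, had 5, 4 and 11 counts in iMS*Bmal1*+/+ muscle and 13, 5 and 5 counts in iMS*Bmal1*-/- muscle. The groups overlapped, and these low counts do not check the genotype labels. *Gm45355*, which faces *Arntl* exons, had 46.7, 36.7 and 41.4 CPM in iMS*Bmal1*+/+ and 27.0, 25.2 and 44.3 CPM in iMS*Bmal1*-/- muscle. Here 2 of the 3 iMS*Bmal1*-/- libraries lay under the iMS*Bmal1*+/+ range, and replicate 3 of iMS*Bmal1*-/- lay within it (log2 fold change -0.36, adjusted p = 0.544 by the edgeR quasi-likelihood test with Benjamini-Hochberg adjustment described next).

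Of the 10 genes, 1 differed between the genotypes, the parvalbumin gene *Pvalb*, which was higher in iMS*Bmal1*-/- muscle. All 10 genes passed the filter on low counts. Calls rest on edgeR's quasi-likelihood test on counts scaled by TMM, two-sided, with Benjamini-Hochberg adjustment over the 6831 tested genes (QL-BH) and a threshold of 0.05 for the adjusted p. Over all tested genes, 125 were called (1.83%), 52 of them higher (0.761%) and 73 lower (1.07%) in iMS*Bmal1*-/- muscle. The 125 fell to 66 without iMS*Bmal1*-/- replicate 1 and to 60 without iMS*Bmal1*-/- replicate 2. For 4 of the 10 genes, *Cacna1s*, *Trdn*, *Casq1* and *Pvalb*, the 3 iMS*Bmal1*-/- libraries were all above the 3 iMS*Bmal1*+/+ libraries, and for none were they all below. Among all tested genes, 17.3% had groups that did not overlap, and 8.84% had them with iMS*Bmal1*-/- higher. The median log2 fold change was 0.33 over the 8 calcium genes, all of them above 0 although *Atp2a2* and *Jph1* were below 0 without single libraries, and -0.00087 over all tested genes, of which 49.8% were above 0.

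**Figure D1:**
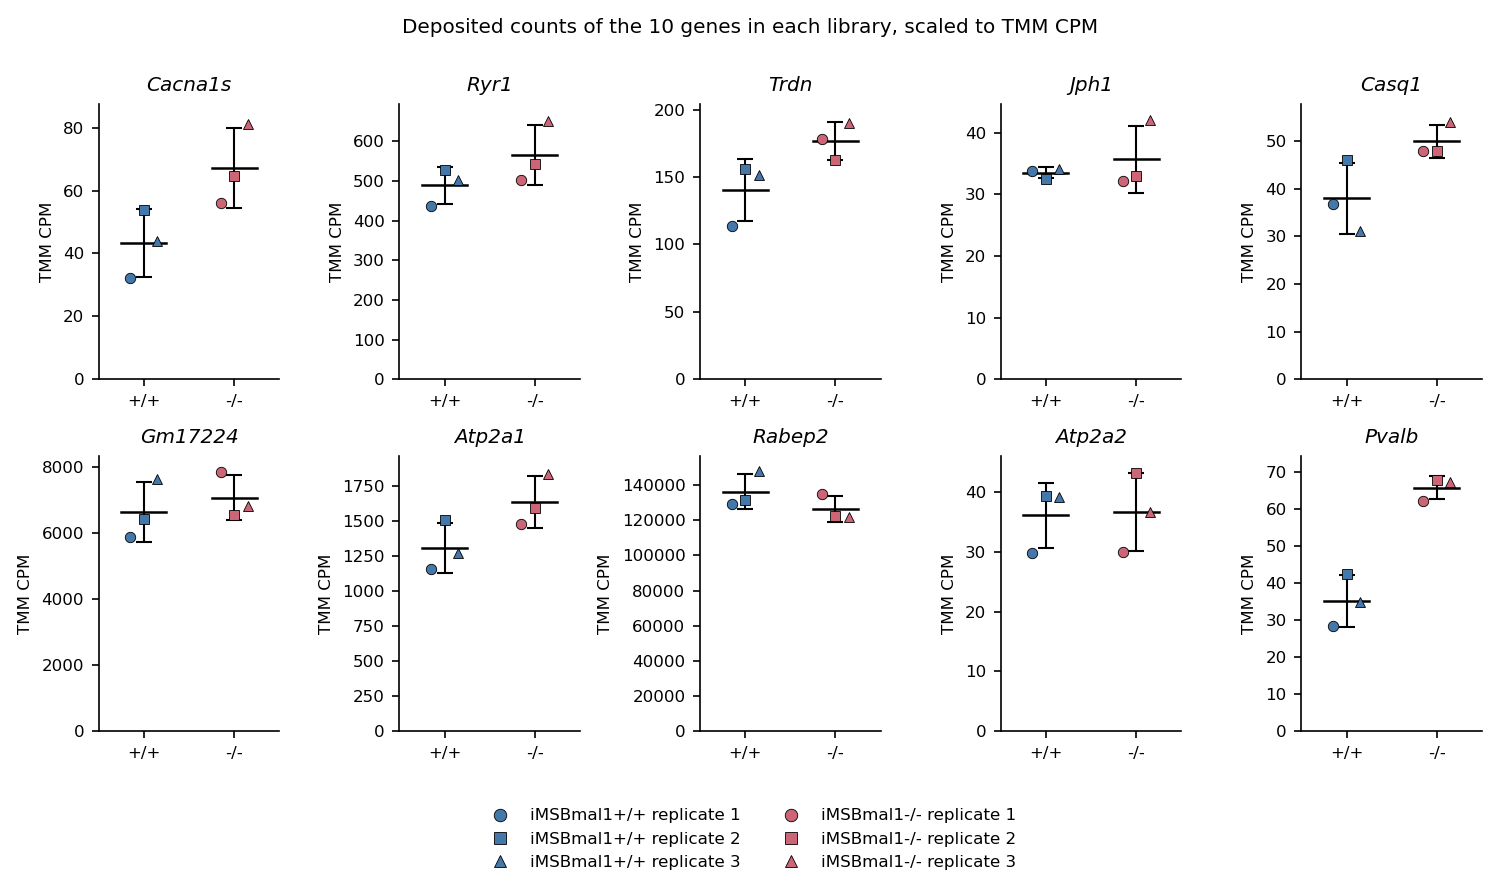
Expression of the 10 genes in each library as TMM-scaled CPM (linear axes from 0), with iMS*Bmal1*+/+ (+/+) in blue and iMS*Bmal1*-/- (-/-) in red, bars for the mean and SD of 3 libraries, and symbols for the replicate number. The groups did not overlap for *Cacna1s*, *Trdn*, *Casq1* and *Pvalb*, and only *Pvalb* passed the test, with 35.2 CPM in iMS*Bmal1*+/+ and 65.7 in iMS*Bmal1*-/- muscle.

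*Cacna1s* encodes the pore-forming subunit of Cav1.1, the voltage sensor of the transverse tubule. The gene (ENSMUSG00000026407) lies on the plus strand of chromosome 1 at 136052750 to 136119822 (GRCm38, GENCODE annotation). *Cacna1s* was at 32.3, 53.7 and 44.0 CPM in the iMS*Bmal1*+/+ libraries and at 56.1, 64.7 and 81.1 CPM in the iMS*Bmal1*-/- libraries, from 65 to 170 counts each. The groups were apart, with a gap of a few CPM between the highest iMS*Bmal1*+/+ and the lowest iMS*Bmal1*-/- library. The log2 fold change of 0.63 (SE 0.19) did not pass the threshold (adjusted p = 0.108, edgeR QL-BH). Over 13 alternatives the adjusted p ranged from 0.0194 to 0.445 (edgeR QL-BH, DESeq2 or limma). It passed the threshold in 1 of them, edgeR QL-BH with the replicate number as a block (0.0194), although these numbers do not pair the samples. In bulk muscle, fewer cells of a type and less RNA per cell cannot be told apart, for this gene as for those that follow.

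*Gm37759*, an antisense gene on the minus strand at 136116577 to 136119822, faces the last 5 exons of *Cacna1s* over 1309 bp, of which 517 bp are coding in *Cacna1s*. It had 3137, 3499 and 3983 CPM in iMS*Bmal1*+/+ and 4866, 4405 and 4747 CPM in iMS*Bmal1*-/- muscle. Again the groups were apart, with all iMS*Bmal1*-/- libraries higher. The log2 fold change was 0.40 (SE 0.11), and the adjusted p of 0.0697 (edgeR QL-BH) missed the threshold. It was passed in 4 of 13 alternatives, by DESeq2 (adjusted p = 0.0317) and by edgeR QL-BH with no filter (0.0345), with the replicate block (0.0347) and without iMS*Bmal1*+/+ replicate 3 (0.0140). The replicate numbers used for that block do not pair the samples. The range over all 13 was 0.0140 to 0.506. *Gm37759* had 58.6 to 97.1 times the counts of *Cacna1s*, and the log2 ratio was 6.38 ± 0.31 in iMS*Bmal1*+/+ and 6.13 ± 0.29 in iMS*Bmal1*-/- muscle (SD, n = 3 each, exact permutation test, two-sided, p = 0.4). The difference of -0.24 was -0.13 and -0.42 without iMS*Bmal1*+/+ replicate 1 or 2, and -0.39 and -0.11 without iMS*Bmal1*-/- replicate 1 or 3. With 3 libraries against 3, this test cannot give a p under 0.1.

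*Ryr1* encodes the ryanodine receptor, the calcium release channel of the sarcoplasmic reticulum, on the minus strand of chromosome 7 at 29003344 to 29125179. The *Ryr1* values were 437, 528 and 503 CPM in iMS*Bmal1*+/+ and 503, 543 and 651 CPM in iMS*Bmal1*-/- muscle. The ranges overlapped, and the highest value was that of iMS*Bmal1*-/- replicate 3. The difference (log2 fold change 0.21, SE 0.11) was not past the threshold (adjusted p = 0.501, edgeR QL-BH). It was 0.13 without iMS*Bmal1*+/+ replicate 1 and 0.09 without that highest library.

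A pair of annotated genes on the plus strand faces *Ryr1*. *Gm26604* (29071603 to 29081142) shares 864 bp with 6 *Ryr1* exons and had 9570, 10032 and 11671 CPM in iMS*Bmal1*+/+ and 10299, 9553 and 9973 CPM in iMS*Bmal1*-/- muscle. Its groups overlapped, and the log2 fold change of -0.07 (SE 0.11, adjusted p = 0.878, edgeR QL-BH) was 0.02 without iMS*Bmal1*+/+ replicate 3. It was -0.13 without iMS*Bmal1*+/+ replicate 1, and -0.10 and -0.04 without iMS*Bmal1*-/- replicate 1 or 2. It had 15.3 to 23.2 times the counts of *Ryr1*. *Gm44408*, annotated as a miRNA gene of 66 bp, lies with 50 bp over a coding exon of *Ryr1* and had 2372, 2628 and 3144 CPM in iMS*Bmal1*+/+ and 2427, 2028 and 2237 CPM in iMS*Bmal1*-/- muscle. Of these, 2 of the 3 iMS*Bmal1*-/- libraries were below all iMS*Bmal1*+/+ libraries, and the fold change (log2 -0.28, SE 0.12) was not past the threshold (adjusted p = 0.310, edgeR QL-BH). It was -0.17 without iMS*Bmal1*+/+ replicate 3, the highest library. The sequence of *Gm44408* is shown because this short interval alone held 3386 to 8283 counts per library. It is the plus strand of chr7:29045628-29045693 (GRCm38), from the GENCODE transcript, with the bases over the *Ryr1* exon in capitals.
Gm44408: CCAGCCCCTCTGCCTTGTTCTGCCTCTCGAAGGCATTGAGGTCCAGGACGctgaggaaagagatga

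The log2 ratio of *Gm44408* to *Ryr1* was 2.44, 2.32 and 2.64 for iMS*Bmal1*+/+ replicates 1, 2 and 3, and for iMS*Bmal1*-/- replicates it was 2.27, 1.90 and 1.78. All 3 iMS*Bmal1*-/- values were lower, a difference of -0.48 (exact permutation test, two-sided, p = 0.1, the smallest possible). For *Gm26604* to *Ryr1*, the ratios overlapped between the groups, with a difference of -0.27 (exact permutation test, p = 0.2) that was -0.17 without iMS*Bmal1*-/- replicate 3.

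At the triad, where transverse tubule and sarcoplasmic reticulum meet, triadin anchors calsequestrin to the ryanodine receptor and junctophilin holds the membranes together. *Trdn*, the triadin gene, on the plus strand of chromosome 10 at 33080554 to 33476709, was at 114, 156 and 152 CPM in iMS*Bmal1*+/+ and at 178, 162 and 190 CPM in iMS*Bmal1*-/- muscle. The iMS*Bmal1*-/- libraries were all higher, although iMS*Bmal1*-/- replicate 2 exceeded iMS*Bmal1*+/+ replicate 2 by only a few CPM. The log2 fold change of 0.33 (SE 0.13) did not pass the threshold (adjusted p = 0.285, edgeR QL-BH), and it was 0.19 without iMS*Bmal1*+/+ replicate 1. No annotated exon faces those of *Trdn*, so that no opposite-strand count can be set beside its own, and the strand of its counts was not tested.

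*Jph1*, the junctophilin 1 gene, on the minus strand of chromosome 1 at 16964560 to 17097889, had 33.8, 32.5 and 34.2 CPM in iMS*Bmal1*+/+ and 32.2, 32.9 and 42.0 CPM in iMS*Bmal1*-/- muscle. Apart from iMS*Bmal1*-/- replicate 3, all libraries were within a narrow range, and the groups overlapped. Its log2 fold change was 0.09 (SE 0.18, adjusted p = 0.910, edgeR QL-BH), and -0.04 without that library. Leaving out iMS*Bmal1*-/- replicate 1 or 2 gave 0.16 and 0.15.

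*Gm28376*, an antisense gene of 3 short exons (176 bp in all) on the plus strand, ends inside a coding exon of *Jph1*. Its libraries held 851, 778 and 1004 CPM in iMS*Bmal1*+/+ and 704, 615 and 626 CPM in iMS*Bmal1*-/- muscle. Every iMS*Bmal1*-/- library was lower than every iMS*Bmal1*+/+ library. *Gm28376* was the only one of the 5 further genes facing a calcium gene that passed the threshold (log2 fold change -0.44, SE 0.11, adjusted p = 0.0465, edgeR QL-BH). The call was made in 6 of 13 alternatives (adjusted p from 0.00584 to 0.439). Under edgeR QL-BH the adjusted p was 0.0792 and 0.169 without iMS*Bmal1*+/+ replicate 1 or 3, and 0.0739, 0.228 and 0.182 without iMS*Bmal1*-/- replicate 1, 2 or 3. It was 0.0520 with the 10 genes left out of the scaling, and 0.439 with limma on the deposited normalized values.

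The log2 ratio of *Gm28376* to *Jph1* was 4.65, 4.58 and 4.88 for iMS*Bmal1*+/+ replicates and 4.45, 4.22 and 3.90 for iMS*Bmal1*-/- replicates. These groups did not overlap, and the difference was -0.51 (exact permutation test, two-sided, p = 0.1). The shared bases are shown because *Gm28376* is the facing gene that was called and shares only 34 bp (19.3% of its exons) with *Jph1*. The line gives part of the *Jph1* mRNA, on the minus strand, with the bases that face *Gm28376* (chr1:17091598-17091631, GRCm38) in capitals and 30 bases of mRNA on either side.
Jph1: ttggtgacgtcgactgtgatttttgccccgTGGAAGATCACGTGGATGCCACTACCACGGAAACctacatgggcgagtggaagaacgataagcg

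*Casq1* encodes calsequestrin 1, the main calcium-binding protein in the sarcoplasmic reticulum of fast fibers, on the minus strand of chromosome 1 at 172209894 to 172219868. The *Casq1* libraries were at 36.8, 45.9 and 31.1 CPM in iMS*Bmal1*+/+ and at 47.9, 47.9 and 53.9 CPM in iMS*Bmal1*-/- muscle. The groups were apart by a small margin over iMS*Bmal1*+/+ replicate 2. With 74 to 113 counts per library, the log2 fold change of 0.40 (SE 0.18) was not past the threshold (adjusted p = 0.359, edgeR QL-BH), and it was 0.27 without iMS*Bmal1*+/+ replicate 3.

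*Gm17224*, an antisense gene on the plus strand at 172213021 to 172213680, had 5871, 6421 and 7637 CPM in iMS*Bmal1*+/+ and 7833, 6546 and 6802 CPM in iMS*Bmal1*-/- muscle. The groups overlapped, with iMS*Bmal1*+/+ replicate 3 and iMS*Bmal1*-/- replicate 1 as the high libraries (log2 fold change 0.09, SE 0.12, adjusted p = 0.847, edgeR QL-BH). Without iMS*Bmal1*+/+ replicate 1 or iMS*Bmal1*-/- replicate 1 it was -0.0016 and -0.0024, and without iMS*Bmal1*+/+ replicate 3 or iMS*Bmal1*-/- replicate 2 it was 0.20 and 0.14. It had 126 to 245 times the counts of *Casq1*, and the difference in log2 ratio between the groups was -0.32 (exact permutation test, two-sided, p = 0.4). Leaving out iMS*Bmal1*+/+ replicate 3 gave -0.08, and leaving out iMS*Bmal1*+/+ replicate 2 gave -0.49. The first of its 2 exons covers 2 consecutive coding exons of *Casq1*, of 55 and 101 bp, and the intron between them. Those bases are shown because they are all that the *Casq1* and *Gm17224* exons share, 156 bp or 31.2% of *Gm17224*. The line is *Casq1* mRNA, minus strand, with the shared bases (within chr1:172213028-172213391, GRCm38) in capitals and 30 bases of mRNA on either side.
Casq1: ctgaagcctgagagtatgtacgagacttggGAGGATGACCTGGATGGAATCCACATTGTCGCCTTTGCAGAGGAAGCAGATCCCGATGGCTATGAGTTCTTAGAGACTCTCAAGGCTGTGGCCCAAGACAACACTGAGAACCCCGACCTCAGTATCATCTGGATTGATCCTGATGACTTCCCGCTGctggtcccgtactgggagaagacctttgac

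**Figure D2:**
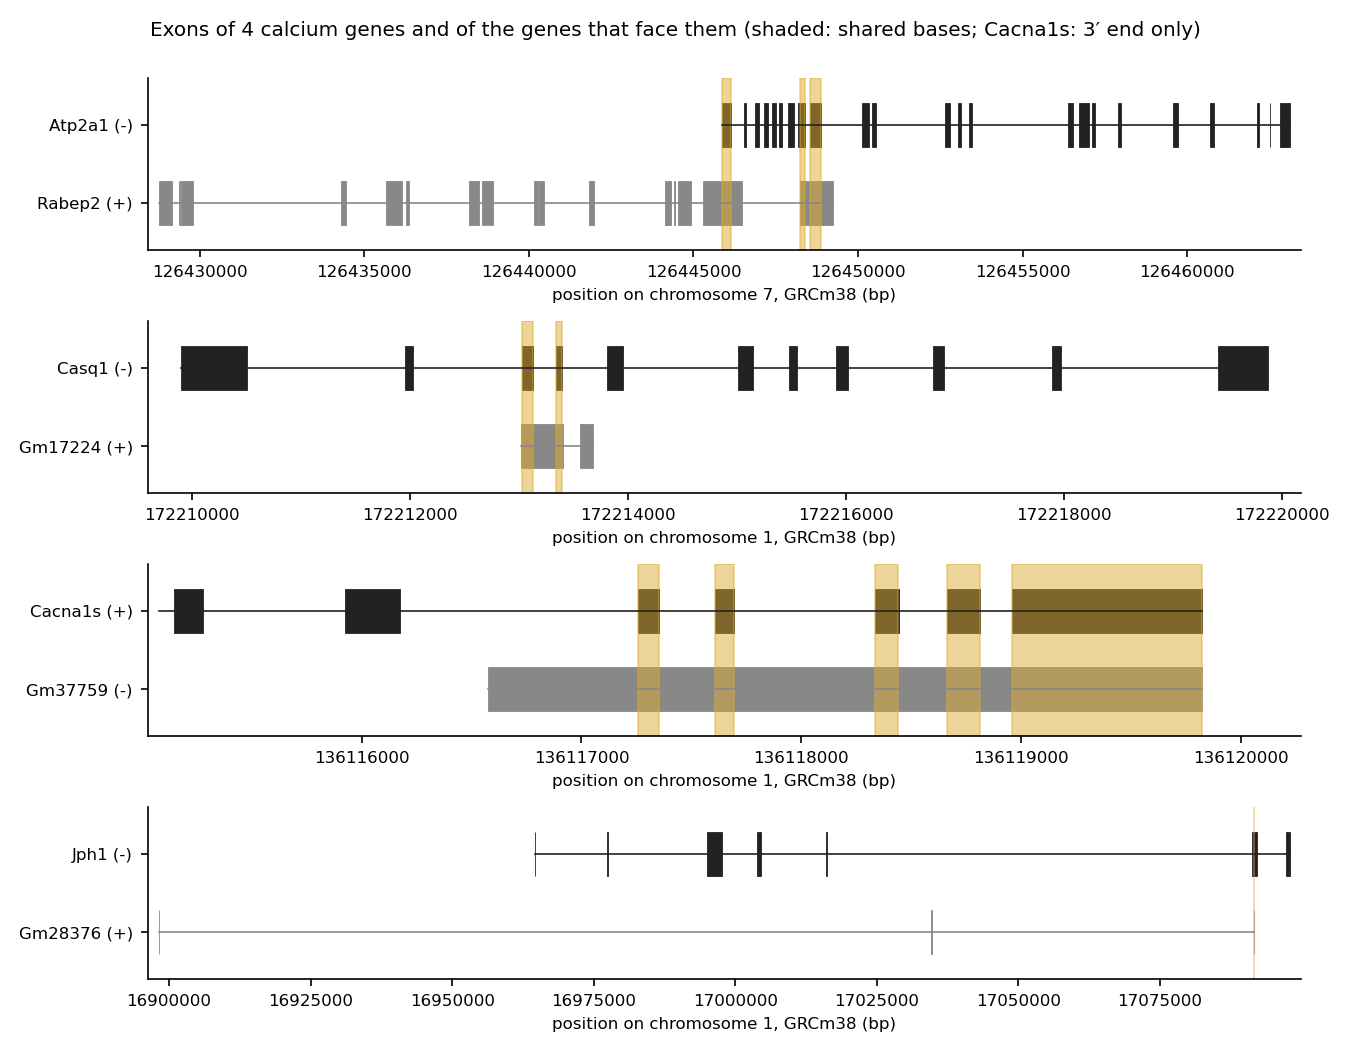
Exons (boxes) of 4 calcium genes (black) and of the genes that face them (gray) along GRCm38, with the strand in parentheses and the shared bases shaded, to scale within each panel. *Atp2a1* and *Rabep2* share 763 bp, *Casq1* and *Gm17224* 156 bp, *Cacna1s* and *Gm37759* 1309 bp (only the 3′ end of *Cacna1s* is drawn), and *Jph1* and *Gm28376* 34 bp.

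*Atp2a1* encodes SERCA1, the calcium pump of fast fibers, and lies on the minus strand of chromosome 7 at 126445858 to 126463108. It was at 1157, 1506 and 1269 CPM in iMS*Bmal1*+/+ and at 1479, 1593 and 1838 CPM in iMS*Bmal1*-/- muscle. The overlap came from iMS*Bmal1*+/+ replicate 2, which was slightly above iMS*Bmal1*-/- replicate 1. The means were 1310.4 ± 178 and 1637 ± 183 CPM (SD, n = 3 each), with a log2 fold change of 0.32 (SE 0.12) that did not pass the threshold (adjusted p = 0.221, edgeR QL-BH).

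*Rabep2*, which encodes a rabaptin involved in endosome traffic, lies on the plus strand at 126428759 to 126449245, tail to tail with *Atp2a1*. Its 3′ exons share 763 bp with *Atp2a1*, of which 517 bp are coding in *Atp2a1* and none in *Rabep2*. *Rabep2* had 129208, 131810.4 and 147816 CPM in iMS*Bmal1*+/+ and 135055, 122183 and 121841 CPM in iMS*Bmal1*-/- muscle. The groups overlapped, with iMS*Bmal1*+/+ replicate 3 as the highest library, and the log2 fold change of -0.11 (SE 0.12) was not past the threshold (adjusted p = 0.799, edgeR QL-BH). It was -0.05 without that library and -0.17 without iMS*Bmal1*-/- replicate 1. Of all counts, *Rabep2* took 12.4, 12.8 and 14.3% in iMS*Bmal1*+/+ libraries, against 12.9, 12.6 and 12.4% in iMS*Bmal1*-/- libraries.

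There were 112, 87.5 and 116 *Rabep2* counts per *Atp2a1* count in iMS*Bmal1*+/+ libraries, against 91.3, 76.7 and 66.3 in iMS*Bmal1*-/- libraries. These values overlapped, with iMS*Bmal1*-/- replicate 3 lowest and iMS*Bmal1*+/+ replicate 3 highest. On the log2 scale the ratio was 6.71 ± 0.22 in iMS*Bmal1*+/+ and 6.28 ± 0.23 in iMS*Bmal1*-/- muscle, a difference of -0.43 (SD, n = 3 each, exact permutation test, two-sided, p = 0.2).

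*Atp2a2* encodes SERCA2, the pump of slow fibers and heart, on the minus strand of chromosome 5 at 122453513 to 122502225. The *Atp2a2* level was 29.8, 39.2 and 39.1 CPM in iMS*Bmal1*+/+ and 30.02, 43.1 and 36.7 CPM in iMS*Bmal1*-/- muscle. The groups covered nearly the same range, and the log2 fold change was 0.01 (SE 0.19, adjusted p = 0.991, edgeR QL-BH). Its sign was not stable, with -0.12, 0.06 and 0.07 without iMS*Bmal1*+/+ replicate 1, 2 or 3, 0.13, -0.11 and -0.00083 without iMS*Bmal1*-/- replicate 1, 2 or 3, and 5 of 13 alternatives below 0. *Gm43361*, a gene of a single exon on the plus strand that contains an 83 bp coding exon of *Atp2a2*, had 76.6, 76.9 and 45.9 CPM in iMS*Bmal1*+/+ and 72.2, 62.3 and 78.7 CPM in iMS*Bmal1*-/- muscle. The low library was iMS*Bmal1*+/+ replicate 3, and the groups overlapped (log2 fold change 0.11, SE 0.18, adjusted p = 0.879, edgeR QL-BH, and -0.11 without that library). Leaving out iMS*Bmal1*+/+ replicate 1 or 2 gave 0.22 and 0.23, and iMS*Bmal1*-/- replicate 2 or 3 gave 0.20 and 0.04. The difference in log2 ratio of *Gm43361* to *Atp2a2* was 0.11 with all libraries (exact permutation test, two-sided, p = 0.7). Leaving out single libraries gave 0.36, 0.17 and -0.20 without iMS*Bmal1*+/+ replicate 1, 2 or 3, and -0.04, 0.33 and 0.04 without iMS*Bmal1*-/- replicate 1, 2 or 3, so that its sign was not stable. With 1.17 to 2.57 counts of the facing gene per count of the pump gene, this pair was the most even of the 7.

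*Pvalb* encodes parvalbumin, the soluble calcium buffer of fast fibers, on the minus strand of chromosome 15 at 78191114 to 78206400. No annotated exon faces it, so that no opposite-strand count can be set beside its own. Whether the counts of *Pvalb* are reads of its own strand was not tested. It had 57, 82 and 92 counts in iMS*Bmal1*+/+ muscle and 143, 113 and 141 counts in iMS*Bmal1*-/- muscle. Scaled, this was 28.3, 42.3 and 34.9 CPM in iMS*Bmal1*+/+ and 62.2, 67.7 and 67.2 CPM in iMS*Bmal1*-/- muscle. All iMS*Bmal1*-/- libraries were well above the highest iMS*Bmal1*+/+ library, replicate 2, and close to each other. The means were 35.2 ± 7.0 and 65.7 ± 3.03 CPM (SD, n = 3 each), and *Pvalb* rose by a log2 fold change of 0.90 (SE 0.17, adjusted p = 0.00700, edgeR QL-BH). The call was made in 12 of 13 alternatives, with a log2 fold change between 0.76 and 1.04 in all of them. The exception was limma on the deposited normalized values (log2 fold change 0.88, adjusted p = 0.227), and the adjusted p was 0.000678 to 0.0434 in the other alternatives.

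**Figure D3:**
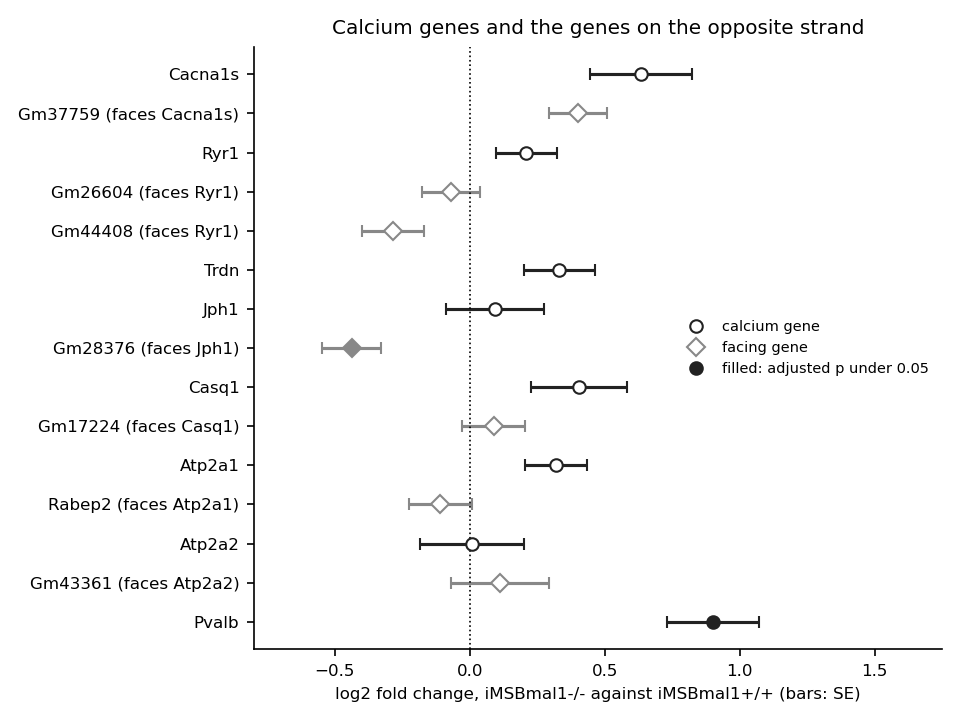
Log2 fold change of each calcium gene (circles) and of the genes on the opposite strand (gray diamonds), iMS*Bmal1*-/- against iMS*Bmal1*+/+ muscle, n = 3 libraries each, with the standard error as bars and filled symbols for an adjusted p under 0.05 (edgeR QL-BH). *Pvalb* (0.90) and *Gm28376* (-0.44) are the filled symbols.

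The ratio of the calcium gene to the gene facing it varied between libraries in a similar way at most of these loci. *Atp2a1* as a percentage of *Rabep2* was 0.895, 1.14 and 0.858 in iMS*Bmal1*+/+ libraries, against 1.10, 1.30 and 1.51 in iMS*Bmal1*-/- libraries. *Ryr1* as a percentage of *Gm26604* was 4.56, 5.26 and 4.31 against 4.88, 5.68 and 6.53, and *Jph1* as a percentage of *Gm28376* was 3.97, 4.18 and 3.40 against 4.58, 5.36 and 6.71. In these 3 pairs iMS*Bmal1*-/- replicate 3 was the highest library and iMS*Bmal1*+/+ replicate 3 the lowest. *Casq1* over *Gm17224* had the same highest and lowest libraries (0.792 and 0.408%), and *Cacna1s* over *Gm37759* was highest in iMS*Bmal1*-/- replicate 3 (1.71%) and lowest in iMS*Bmal1*+/+ replicate 1 (1.03%). *Atp2a2* over *Gm43361* was the exception, highest in iMS*Bmal1*+/+ replicate 3 at 85.1%. Outside these genes, the troponin C gene *Tnnc2* as a percentage of *Ube2c*, which faces it, was 0.207, 0.227 and 0.207 in iMS*Bmal1*+/+ libraries, against 0.211, 0.291 and 0.303 in iMS*Bmal1*-/- libraries. This pair, picked after seeing the data, was highest in iMS*Bmal1*-/- replicate 3 and lowest in iMS*Bmal1*+/+ replicate 1. The order was not shared by *mt-Co1* as a percentage of *mt-Nd6*, 2 genes that do not face each other, at 0.820, 0.773 and 0.967 against 0.686, 1.87 and 0.895. There iMS*Bmal1*-/- replicate 2 was highest and iMS*Bmal1*-/- replicate 1 lowest. The part of these ratios in the higher counts of calcium genes in iMS*Bmal1*-/- muscle, *Pvalb* included, was not tested.

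Division of each calcium gene by *Atp2a1* of the same library, a comparison chosen after seeing the data, gave values that do not depend on library scaling. *Pvalb* was 2.45, 2.81 and 2.75% of *Atp2a1* in iMS*Bmal1*+/+ libraries, against 4.21, 4.25 and 3.66% in iMS*Bmal1*-/- libraries. These groups did not overlap, and the difference was 0.60 on the log2 scale (exact permutation test, two-sided, p = 0.1), against the 0.90 obtained with TMM. *Cacna1s* was 2.79, 3.57 and 3.47% of *Atp2a1* against 3.80, 4.06 and 4.41%, also with no overlap, a log2 difference of 0.33 (exact permutation test, p = 0.1) that was 0.21 without iMS*Bmal1*+/+ replicate 1. For *Trdn*, *Casq1*, *Ryr1*, *Atp2a2* and *Jph1* the groups overlapped on this scale, with log2 differences of 0.02, 0.09, -0.12, -0.30 and -0.24. The sign was not stable for *Trdn*, at -0.040 and -0.0034 without iMS*Bmal1*+/+ replicate 1 or 2 and -0.057 without iMS*Bmal1*-/- replicate 1, nor for *Casq1*, at -0.028 without iMS*Bmal1*+/+ replicate 3. For *Jph1* the difference was -0.15 and -0.37 without iMS*Bmal1*+/+ replicate 1 or 2, and for *Ryr1* it was -0.08 without iMS*Bmal1*+/+ replicate 3. *Trdn* and *Casq1*, whose groups were apart in CPM, were thus no longer apart relative to *Atp2a1*.

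The genes on the facing side were divided by *Rabep2* in the same way. *Gm37759* was 2.43, 2.65 and 2.69% of *Rabep2* in iMS*Bmal1*+/+ libraries, against 3.60, 3.61 and 3.90% in iMS*Bmal1*-/- libraries. The groups were far apart relative to their spread (log2 difference 0.51, exact permutation test, two-sided, p = 0.1). *Gm17224* was also higher in every iMS*Bmal1*-/- library on this scale (4.86 ± 0.312 against 5.58 ± 0.221%, SD, n = 3 each), and *Gm28376* was lower in every one (0.643 ± 0.0467 against 0.513 ± 0.00901%). *Gm26604*, *Gm44408* and *Gm43361* overlapped between the groups. At the *Cacna1s* locus, both strands were thus higher in all iMS*Bmal1*-/- libraries by either scaling.

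**Figure D4:**
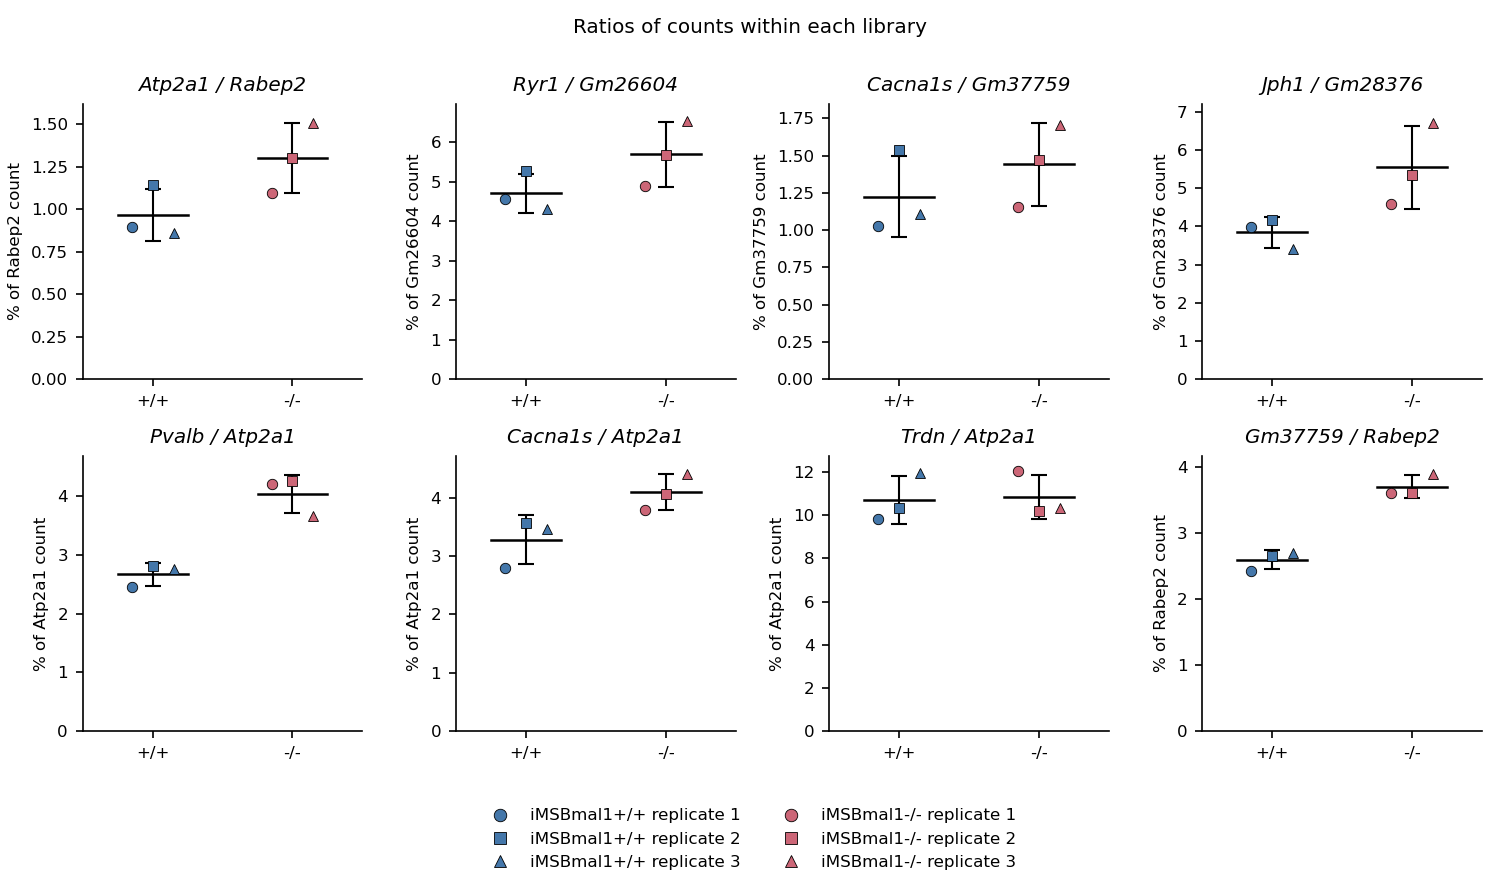
Ratios of counts within each library in percent (linear axes from 0), with iMS*Bmal1*+/+ (+/+) in blue, iMS*Bmal1*-/- (-/-) in red, and bars for the mean and SD of 3 libraries. The upper row divides calcium genes by the gene facing them, where iMS*Bmal1*-/- replicate 3 (triangle) is the highest library, and the lower row divides *Pvalb*, *Cacna1s* and *Trdn* by *Atp2a1*, and *Gm37759* by *Rabep2*, where the groups are apart for *Pvalb*, *Cacna1s* and *Gm37759*.

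Levels per length of annotated exons, with the limit that the strand of the counts is not known, were as follows. In iMS*Bmal1*+/+ muscle, *Atp2a1* was the highest of the calcium genes at 377 ± 51.3 CPM per kb, followed by *Pvalb* at 33.8 ± 6.72, *Ryr1* at 22.4 ± 2.16 and *Casq1* at 19.5 ± 3.83 CPM per kb (SD, n = 3). *Trdn* was at 15.0 ± 2.48, and *Jph1*, *Cacna1s* and *Atp2a2* were at 6.70 ± 0.173, 6.62 ± 1.63 and 5.93 ± 0.886 CPM per kb. *Ryr1* and *Casq1* did not differ beyond their spread, nor did the 3 lowest genes. In iMS*Bmal1*-/- muscle *Pvalb* reached 63.1 ± 2.91 CPM per kb and *Cacna1s* 10.3 ± 1.93, with *Atp2a1* at 471 ± 52.7. On the facing side, *Rabep2* and *Gm17224* were at 25607 and 13286 CPM per kb in iMS*Bmal1*+/+ muscle, *Gm28376*, *Gm26604* and *Gm37759* at 4987, 2880.4 and 1090.5, and *Gm43361* at 14.2. *Gm44408* was left out because it is shorter than a read, so that counts per length are not comparable.

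Together the 10 genes took 13.2, 13.6 and 15.3% of the counts in iMS*Bmal1*+/+ libraries, against 13.9, 13.6 and 13.3% in iMS*Bmal1*-/- libraries. The groups overlapped, and the difference of -0.432 percentage points had an exact permutation p of 0.8 (two-sided). Without iMS*Bmal1*+/+ replicate 3, in which *Rabep2* was highest, the difference was 0.195. The 8 calcium genes alone took 0.180, 0.233 and 0.204% against 0.228, 0.264 and 0.300% (exact permutation test, p = 0.2). Of 1504 other genes with at least 50 CPM, those whose centred log2 CPM over the 6 libraries came closest to *Rabep2* were *4931428F04Rik*, *Inpp5e* and *9330162G02Rik*, with root mean square differences of 0.019, 0.027 and 0.032.

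The promoter table of RefSeq (GRCm38.p6) held windows for 7 of the 10 genes, 8 windows in all, from 250 bases before to 50 after a start. The window of *Gm17224* (172206733 to 172207032) lies several kb from the start that GENCODE gives, and it held neither motif. Both motifs searched read the same on either strand, and each CACGTG is also a CANNTG. The canonical E-box CACGTG, the motif that the BMAL1 and CLOCK proteins are known to bind, was in none of the 8 windows and in 7.15% of the 32851 windows of all genes. The general form CANNTG was in 5 of the 8 windows and in 72.3% of all. Windows of *Cacna1s* and *Casq1* held 2 matches each, those of *Rabep2* and *Atp2a1* 1 each, and of the *Pvalb* windows the downstream one held 2. The bases before each start of *Pvalb*, the gene that was called, are shown on the minus strand with CANNTG in capitals, from chr15:78206401-78206650 (Pvalb upstream) and chr15:78204238-78204487 (Pvalb downstream). A match is a description of these letters only.
Pvalb upstream: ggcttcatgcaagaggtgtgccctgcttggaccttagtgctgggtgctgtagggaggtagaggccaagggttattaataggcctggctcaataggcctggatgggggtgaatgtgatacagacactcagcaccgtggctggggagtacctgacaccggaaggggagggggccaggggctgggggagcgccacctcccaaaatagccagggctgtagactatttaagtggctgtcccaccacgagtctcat
Pvalb downstream: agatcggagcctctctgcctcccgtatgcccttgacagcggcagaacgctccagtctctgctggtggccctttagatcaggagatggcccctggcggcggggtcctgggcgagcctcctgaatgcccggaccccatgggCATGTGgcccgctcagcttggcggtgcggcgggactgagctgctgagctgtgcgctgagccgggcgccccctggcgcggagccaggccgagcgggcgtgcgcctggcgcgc

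Beyond these genes, 59 other genes of calcium handling were in the table, of which 57 had counts and 26 were tested. By edgeR QL-BH 0 of the 26 were called, as by DESeq2 and limma. An unadjusted p under 0.05 was reached by 3 of the 26 with edgeR (11.5%, beside 11.9% of all tested genes), 0 with DESeq2 and 3 with limma. Their median log2 fold change was 0.13, with 76.9% above 0, beside 49.8% of all tested genes. Of the 20 genes that face calcium genes and are not among the 10, 16 were tested and 1 was called, *Gm28376*, with a median log2 fold change of -0.11. Over these 42 tested genes the count of 1 was 2 with DESeq2 and 0 with limma, and it was 0 without iMS*Bmal1*+/+ replicate 1 or without iMS*Bmal1*-/- replicate 1, 2 or 3. Alongside *Cacna1s*, the auxiliary subunit gene *Cacna2d1* had 7.01 ± 2.48 and 10.03 ± 0.453 CPM in iMS*Bmal1*+/+ and iMS*Bmal1*-/- muscle (SD, n = 3 each, here and in the following values). The calmodulin gene *Calm3*, whose product regulates the ryanodine receptor, had 12.1 ± 1.23 and 14.2 ± 4.48 CPM. At the triad, *Jph2* had 97.9 ± 9.49 and 102 ± 14.4 CPM. These 3 genes overlapped between the groups.

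In the store, the histidine-rich calcium-binding protein gene *Hrc* was at 106 ± 17.7 and 127 ± 10.1 CPM. *Pln*, whose product phospholamban restrains the SERCA2 pump, was at 157 ± 22.9 and 139 ± 41.6 CPM, and the genes facing it, *Cep85l* and *Gm47644*, at 3.18 ± 1.74 and 2.59 ± 1.17 CPM and at 14.2 ± 4.60 and 19.8 ± 6.10 CPM, whereas *Sln*, for sarcolipin, had 0 counts in all libraries. *Ocm*, the other parvalbumin-type buffer, had 3 counts in all, so that *Pvalb* was the only buffer gene tested. In the remaining roles, the genes with the most counts had between 49 and 290 over the 6 libraries together. The store-operated entry gene *Stim1* was at 4.63 ± 2.40 and 7.41 ± 3.35 CPM, the mitochondrial uptake gene *Micu3* at 11.3 ± 1.07 and 8.55 ± 2.94 CPM, and the exchanger *Slc8a3* at 3.94 ± 1.96 and 3.98 ± 1.78 CPM. The calpain gene *Capn3*, a calcium-dependent protease, was at 24.2 ± 3.69 and 21.7 ± 1.74 CPM. None of these genes had groups apart. Facing genes in those roles were *Gm2479* (opposite *Orai1*), *Fgf20* (opposite *Micu3*), *Gm11096* (opposite *Slc8a1*) and *Gm10814* (opposite *Capn1*), with log2 fold changes of -0.34, -0.34, 0.71 and -0.15, none called. Of these, *Gm11096* was higher and *Fgf20* lower in every iMS*Bmal1*-/- library, and the other two overlapped between the groups.

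Of 7 markers of fast fibers, all tested, 1 was called, *Mylpf*, beside 1.83% of all tested genes. In 6 of the 7 the iMS*Bmal1*-/- libraries were all higher, beside 8.84% of all tested genes, and in *Myh1* the groups overlapped. The log2 fold change was 0.46 for *Tnnc2* and 0.14 for *Ube2c*, which faces it and whose groups overlapped. Genes facing the other markers are not given. The 7 genes, with *Myh4* the most abundant, summed to 6085, 7818 and 7298 CPM in iMS*Bmal1*+/+ and 8364, 8631 and 9909 CPM in iMS*Bmal1*-/- muscle. The groups were apart (exact permutation test, two-sided, p = 0.1). *Mylpf*, a regulatory light chain gene, had 107 and 192 CPM (log2 fold change 0.85, SE 0.14, adjusted p = 0.00241, edgeR QL-BH), and limma on the deposited normalized values gave an adjusted p of 0.272, the highest of 13 alternatives. The part of this in the values of *Pvalb*, *Cacna1s*, *Trdn* and *Casq1* was not tested. Slow-fiber markers were at or near 0, with *Tnni1* at 0 and *Myh7* and *Myl2* at no more than 3 counts per library. Their sum over 7 genes was 4.97, 6.19 and 6.07 CPM in iMS*Bmal1*+/+ and 11.3, 7.79 and 8.11 CPM in iMS*Bmal1*-/- muscle, with *Myl3* the most abundant and none of the genes passing the filter on low counts. These sums were apart (exact permutation test, p = 0.1), but of the single genes only *Casq2*, with 0 to 4 counts per library, was apart in CPM and 6 overlapped. Since fast-fiber genes share the uncertainty of strand, a low count of a marker here does not show that its cell type is absent.

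Markers of cardiac muscle (5 genes, 2 tested, *Nppa* the most abundant) summed to 9.45, 5.68 and 7.21 CPM in iMS*Bmal1*+/+ and 14.4, 19.8 and 10.97 CPM in iMS*Bmal1*-/- muscle. The groups were apart (exact permutation test, p = 0.1) only through the cardiac actin gene *Actc1*, and the sums of the other 4 genes overlapped. *Nppa* had 5.01 and 4.52 CPM (log2 fold change -0.19, overlap). *Actc1* was called higher (1 to 5 and 13 to 19 counts per library, log2 fold change 2.67, SE 0.55, adjusted p = 0.0139, edgeR QL-BH). Its call was lost without iMS*Bmal1*+/+ replicate 2 (adjusted p = 0.0555, edgeR QL-BH) or 3 (0.0828) and without iMS*Bmal1*-/- replicate 1 (0.0861) or 2 (0.111). Over the alternatives with a value, the adjusted p ranged from 0.000784 to 0.153 (edgeR QL-BH or limma). *Ryr2* and *Tnnt2* had at most 3 counts per library. The sums of the other lists overlapped between the groups (exact permutation test, p from 0.2 to 0.8), and none of their tested genes was called. Of their single genes, *Dcn* (fibroblast, 2 to 6 counts per library) and *Cd68* (macrophage, 3 to 10 counts) were higher in CPM in every iMS*Bmal1*-/- library than in any iMS*Bmal1*+/+ library and were not tested. Smooth muscle and vessel (4 genes, most abundant *Cdh5*) summed to 13.7 to 20.5 CPM, adipocyte (5 genes, *Fabp4*, with *Lep* at 0) to 7.96 to 12.6 CPM, and fibroblast (5 genes, *Col3a1*) to 19.0 to 47.9 CPM. Macrophage markers (4 genes, *Csf1r*, with *Adgre1* at 0) were at 48.5 to 84.1 CPM, with group means of 73.4 for iMS*Bmal1*+/+ and 57.0 for iMS*Bmal1*-/- muscle. Most of this sum was *Csf1r*, whose log2 fold change of -0.41 (SE 0.17, adjusted p = 0.333, edgeR QL-BH, overlap) had the opposite sign to the difference in *Cd68*. Blood markers (5 genes, *Alas2*, with each hemoglobin gene at no more than 3 counts) were at 152 to 213 CPM. Nerve (5 genes, *S100b*) gave 4.79 to 16.5 CPM and denervation (5 genes, *Gadd45a*, with *Myog* at 0) gave 3.61 to 8.27 CPM.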

How the data were processed

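Total RNA of TA muscle was depleted of ribosomal RNA, made into stranded libraries and sequenced as read pairs. The sex of the mice, the Cre promoter and the read layout are from the paper's methods, and treatment, age and kit from the labels. Alignment to mm10 used HISAT2, HTSeq gave one count per gene, and the raw table deposited by the authors holds these counts without normalization. In the other deposited table, each value is a signal equal to the count divided by a DESeq2 size factor of the library. Tool versions, the annotation release and the strand setting are not given in the sources used here. Columns were assigned by sample label, with 0 left unassigned.

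Gene positions and facing exons came from GENCODE M21 (GRCm38), in which 147 of the 52636 identifiers were not found. Raw counts were filtered with edgeR's filter on low counts, scaled by TMM and tested with edgeR 4.0.16 under R 4.3.3, two-sided, on the genotype, with Benjamini-Hochberg adjustment (QL-BH), after a test on simulated data. CPM are counts over the library's counts on tested genes times its TMM factor. The standard error is the log2 fold change over the root of the F statistic. For ratios and summed levels, group labels were permuted exactly over libraries. Python 3.11.15 with numpy 2.4.6 and pandas 2.3.3 was used for tables.

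Alternatives were DESeq2 1.42.0, upper-quartile normalization, scaling without the 10 genes, no filter on low counts, at least 10 counts in every library, limma 3.58.1 on log2(value + 1) of the normalized table, the replicate number as a replicate block, and leaving out each library. The 10 genes, the pathway list and the marker lists (fast fiber, slow fiber, cardiac muscle, smooth muscle and vessel, adipocyte, fibroblast, macrophage, blood, nerve, denervation) were chosen with earlier results of these data known. Genes named in the text are the 10 genes, all genes facing their exons, in each role of the pathway list the gene with the most counts and each called gene (genes facing them included), the 3 genes with the profile closest to *Rabep2*, and the most abundant gene of each marker list. *Arntl*, *Gm45355*, *mt-Nd6*, *mt-Co1*, *Tnnc2*, *Ube2c*, *Sln*, *Cep85l*, *Gm47644* and the other markers named (those called, at or near 0, or apart, and *Myh1*) were added after values were seen. Chi-square per degree of freedom was 2.88 to 10.1 between libraries of a genotype, above sampling noise, and each library was kept as a replicate.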

Additional observations from a re-analysis of the deposited data

How the results depend on the processing

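The log2 fold changes of *Atp2a1*, *Rabep2*, *Casq1*, *Pvalb*, *Ryr1*, *Cacna1s* and *Trdn* kept their sign in all 13 alternatives. *Pvalb* was past the threshold in 12 of them, not with limma. Upper-quartile normalization and a minimum of 10 counts in every library moved no call of the 10 genes or of the 5 further genes facing them. *Mylpf* and *Actc1*, run after seeing the data, passed in 12 of 13 and in 6 of 12 alternatives. The minimum of 10 counts removed *Actc1* from the test, and DESeq2 gave it no adjusted p. The causes of the differences below were not tested.

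With DESeq2, 2 pathway and facing genes passed instead of 1, and with the 10 genes left out of the scaling 0 passed. With no filter on low counts, 219 genes passed in all and 2 of the pathway and facing genes, and the log2 fold change of *Atp2a2* was -0.027. With limma on the deposited normalized values, 14 genes passed, 0 of the 10 genes and 0 of the pathway and facing genes, and that of *Atp2a2* was -0.0102. With the replicate number as a replicate block, 220 genes passed, with 2 of the 10 genes, *Pvalb* and *Cacna1s*, and 2 of the pathway and facing genes. Replicates of the same number did not resemble each other beyond their groups (correlations of -0.0374, -0.0167 and -0.0287), so the numbers do not pair the samples.

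Leaving out each library in turn gave 60 to 109 genes past the threshold, 1 of the 10 genes each time, and 0 to 1 pathway and facing genes. Log2 fold changes ranged from -0.0024 to 0.20 for *Gm17224*, -0.12 to 0.13 for *Atp2a2*, -0.043 to 0.16 for *Jph1*, -0.13 to 0.018 for *Gm26604* and -0.11 to 0.23 for *Gm43361*. The difference in log2 ratio of *Gm43361* to *Atp2a2* ranged from -0.20 to 0.36, and that in the share of counts on the 10 genes from -0.864 to 0.195 percentage points.

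Depth limits these results. *Cacna1s*, *Jph1*, *Casq1*, *Atp2a2* and *Pvalb* had 55 to 170 counts per library, which limits their precision to the standard errors given, and slow-fiber and several other markers were at or near 0 counts. Which strand the counts stand for was not tested.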
